A study of Tupaia belangeri with 6 samples.

Results

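The genes described here write, erase and read DNA methylation, and their RNA was measured in the prefrontal cortex (PFC) of 6 adult tree shrews. The members were 9 genes fixed by name. They are the DNA methyltransferases DNMT1, DNMT3A and DNMT3B, the dioxygenases TET1, TET2 and TET3, the maintenance factor UHRF1, and the methyl-CpG binding proteins MBD2 and MBD3. A gene was taken as measured where a row of the gene abundance tables carried exactly its symbol, without the suffix "li" that the annotation gives to further copies. By this rule 5 of the 9 members had a row, namely TET1, TET3, UHRF1, MBD2 and MBD3, out of 95863 loci in each library. No row used here carried the names DNMT1, DNMT3A, DNMT3B or TET2. RefSeq lists each of the 9 members as a protein-coding gene of the Chinese tree shrew on another assembly, so the missing names are no measurement of missing RNA. The levels of the de novo and maintenance methyltransferases were therefore not analysed here.

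DNMT3A and DNMT3B place methyl groups on unmethylated cytosines, and DNMT1 copies the mark onto the new strand after replication, where UHRF1 recruits it. TET enzymes oxidise 5-methylcytosine, and base excision repair can then restore an unmodified cytosine. MBD2 and MBD3 are alternative subunits of the NuRD chromatin remodelling complex. MBD2 binds methylated CpG sites, whereas mammalian MBD3 binds them weakly or not at all. In mature neurons, DNA methylation is also found outside CpG sites.

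The RNA came from 3 females (numbered 1, 3 and 4) and 3 males (numbered 1, 4 and 5), untreated Tupaia belangeri kept as laboratory animals, with 1 library per animal. In the sample overview of the study each male was older than each female, so sex and age cannot be told apart. The study also profiled cytosine methylation of PFC in CG and non-CG contexts by bisulfite sequencing, and the question for these genes is at what level the enzymes and readers of that mark were expressed and whether the sexes differed. The bisulfite data were not analysed here. The abundance tables give TPM, a transcript level that is corrected for length and relative to the whole library, and the mean coverage of each locus. They give no read counts per gene. The study lists the total reads of each library, but the number of reads behind a TPM value is not known, and no counting interval was computed.

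Markers of neurons were abundant in every library, where 7 of 8 listed markers had a row (NEFL at 0) and together reached 6508 to 8275 TPM (females) and 6290 to 7547 TPM (males). Those of cortical projection neurons summed to 394 to 502 TPM and 382 to 473 TPM. Of 5 listed striatal markers only DRD1 had a row, at 1.20 to 7.06 TPM. Among markers of dividing cells, MKI67 reached at most 0.118 TPM and CCNB1 was at 0 TPM, whereas MCM2 stood at 21.3 to 30.6 TPM. The loci named CCNB1 and NEFL span 1311 and 1993 bp, and a 0 there does not show that the gene was silent. The sums of 3 other lists did not overlap between the sexes, which is a description without a test. That of the 4 blood markers, 3 of which were separated by themselves, ran from 1288 to 2553 TPM among females, while among males it was 68.9 to 112 TPM. Oligodendrocyte markers (3 of 6 with a row) summed to 348 to 482 TPM among females but 80.7 to 236 TPM among males. Only MAG of the 3 was separated, at 246.6 to 345.5 TPM against 63.4 to 145.6 TPM, while MOG and MBP overlapped. The locus named MBP spans 893 bp and was at 7.07 to 13.7 TPM, and whether it holds the MBP gene was not tested. Markers of oligodendrocyte precursors summed to 180 to 228 TPM among females against 92.7 to 154 TPM among males, with OLIG1 and OLIG2 separated and PDGFRA overlapping. Some markers were separated in lists whose sums overlapped. CLDN5 and FLT1 of the endothelium list were higher in females, and NEUROD6 of cortical projection neurons was higher in males. For comparison, the sexes did not overlap in 9.86% of all 30238 genes tested. Loci that StringTie assembled without a strand took 5.16% of the TPM in male 1 and 7.88% in male 5, and 2.30% to 3.33% in the other 4 libraries. In tissue RNA, fewer cells of a type and less RNA per cell cannot be told apart. The part of these differences in the results on single genes was not tested.

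The 5 measured members covered a wide range of levels. MBD3 had the highest mean TPM, followed by MBD2, TET3, UHRF1 and TET1. Among 13407 named genes that passed the filter on low values (at least 0.1 TPM in 3 or more of 6 animals), 97.0% had a lower mean than MBD3 and 60.8% a lower mean than MBD2. The shares were 36.7% for TET3, 23.3% for UHRF1 and 20.5% for TET1. All 5 passed this filter.

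**Figure D1:**
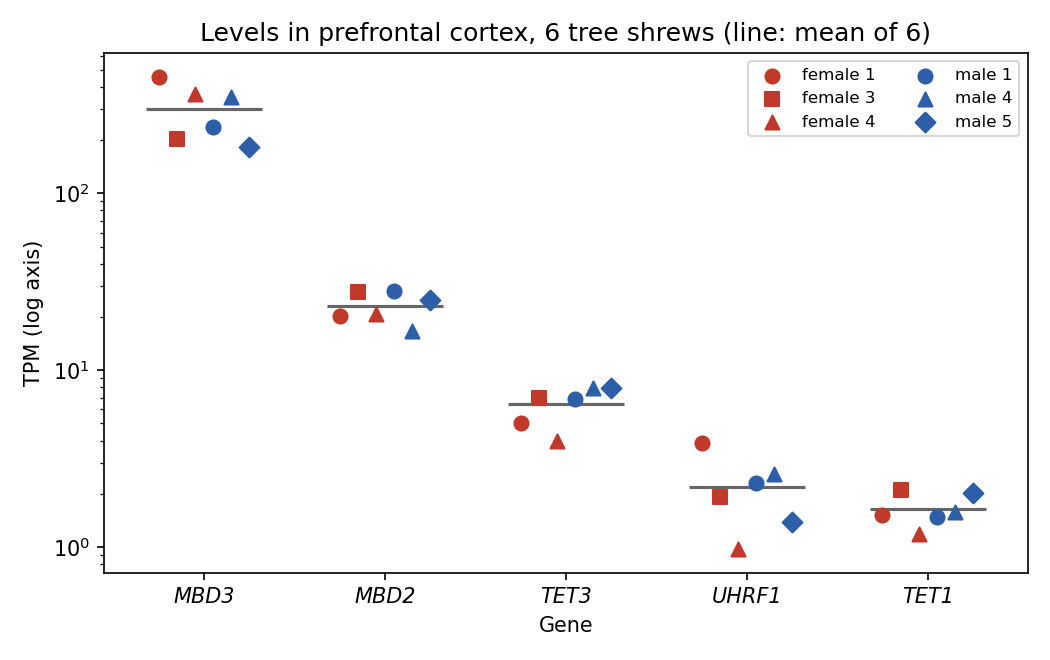
TPM on a log axis of the 5 measured members in each of the 6 libraries, with red symbols for females, blue symbols for males, and the symbol shape giving the animal number. The line is the mean of 6, which falls from 298.9 TPM for MBD3 to 1.65 TPM for TET1, and the points of UHRF1 and TET1 overlap.

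Of the 2 erasers with a row, TET1, whose protein carries a CXXC domain that binds unmethylated CpG sites, had the lower level. Its locus lies on the minus strand of chromosome 14 at 57559257 to 57708364 of TS_3.0, a span of 149108 bp. Females 1, 3 and 4 had 1.51, 2.11 and 1.19 TPM of TET1, and males 1, 4 and 5 had 1.47, 1.58 and 2.02 TPM. Female 3 was highest and female 4 lowest, so the range of the females enclosed that of the males. TET1 overlapped 2 loci without a strand, at 4.403 TPM in male 1 only and at 5.63 TPM in male 5 only, and a locus on the opposite strand at 1.70 TPM in male 4 only, each above TET1 in that library. The mean was 1.65 ± 0.351 TPM (SD, n = 6), with a coefficient of variation (SD over mean) of 21.3%.

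TET3, the TET enzyme known for oxidising the paternal genome of the zygote and for its expression in neurons, lies on the minus strand of chromosome 11 at 51682053 to 51817521, a span of 135469 bp. Females 1, 3 and 4 had 5.05, 6.97 and 3.995 TPM, and males 1, 4 and 5 had 6.87, 7.94 and 7.95 TPM. Males 4 and 5 were above all females, and the groups overlapped only because female 3 exceeded male 1. Its mean was 6.46 ± 1.61 TPM (SD, n = 6), with a coefficient of variation of 24.8%. TET3 overlapped 8 short loci without a strand, whose summed TPM was 13.9 in female 4 and 31.8 in male 1 but at most 2.82 in the other 4 libraries.

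TET3 was higher than TET1 in 6 of 6 libraries. The TPM ratio of TET3 to TET1 was 3.34 in female 1, 3.31 in female 3 and 3.37 in female 4, whereas it was 4.66 in male 1, 5.04 in male 4 and 3.94 in male 5. On the log2(TPM + 1) scale TET3 exceeded TET1 by 1.48 ± 0.239 (SD, n = 6; exact two-sided sign-flip permutation test, p = 0.03125, the smallest that 6 animals allow). The p-value stayed 0.03125 after Benjamini-Hochberg adjustment over the 2 gene pairs that had values, of 8 pairs planned. With FPKM in place of TPM the difference was 0.88 at the same p. The 3 female ratios, with a mean of 3.34 ± 0.0272 (SD, n = 3), were below each of the male ratios, which had a mean of 4.55 ± 0.560 (SD, n = 3). This separation was singled out after the values were seen, and the exact two-sided permutation test of the log2 ratio gave p = 0.1, the smallest that 3 against 3 animals allow.

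**Figure D2:**
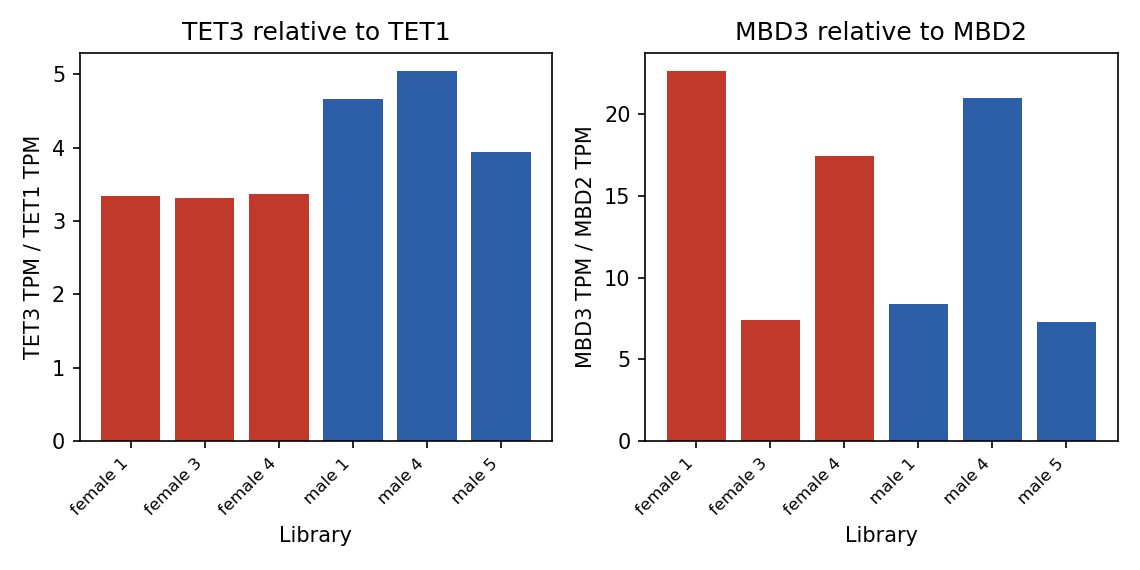
TPM ratio of TET3 to TET1 (left) and of MBD3 to MBD2 (right) in each library, 1 bar per animal, females red and males blue. The TET3 ratio was 3.31 to 3.37 in females and 3.94 to 5.04 in males, whereas the MBD3 ratio ran from 7.28 to 22.6 with both sexes at either end.

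UHRF1, the reader of hemimethylated CpG sites that guides DNMT1 to replicated DNA, lies on the plus strand of the unplaced contig5790 at 78500 to 105445, a span of 26946 bp. Its level was 3.89, 1.92 and 0.976 TPM in females 1, 3 and 4, while males 1, 4 and 5 had 2.30, 2.60 and 1.38 TPM. Female 1 was the highest and female 4 the lowest of all 6 libraries. The mean was 2.18 ± 1.03 TPM (SD, n = 6), and the coefficient of variation of 47.2% was the largest of the 5 members. Of 23445 tested loci with a mean of at least 1 TPM, 52.4% varied less than UHRF1. Unlike the 13407 named genes used for the levels, this set includes unnamed loci, and the share among named genes was not computed.

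The reading of UHRF1 is limited by its neighbours. Its span was overlapped by 3 loci on the opposite strand, 1 of which is named UHRF1li1 and was measured at 0, 1.14 and 2.29 TPM (females 1, 3 and 4) and at 0.545, 0.476 and 3.74 TPM (males 1, 4 and 5). Another of the 3 was at 4.04 TPM in female 4, and a locus without a strand inside UHRF1 was at 7.69 TPM in male 5 only. UHRF1li1 was above UHRF1 in female 4 and male 5, the 2 libraries with the lowest UHRF1. A protocol that keeps the strand is not stated, so reads of UHRF1 and of loci on the other strand may not have been told apart. UHRF1 and TET1 were neighbours in the order of levels, and UHRF1 was the higher of the pair in 3 of 6 libraries, with a ratio between 0.682 and 2.57. TET3, next above, exceeded UHRF1 in 6 of 6 libraries by a factor of 1.30 to 5.77.

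MBD2 lies on the plus strand of chromosome 12 at 23336637 to 23411419, a span of 74783 bp. Females 1, 3 and 4 had 20.2, 27.5 and 20.9 TPM, and males 1, 4 and 5 had 28.2, 16.7 and 25.1 TPM, with the lowest and the highest value both in males. The mean was 23.1 ± 4.56 TPM (SD, n = 6) with a coefficient of variation of 19.7%, the smallest of the 5. Of the same 23445 loci, named and unnamed, 18.6% varied less. The 2 loci on the opposite strand that overlapped MBD2 reached no more than 0.134 TPM. MBD2 was above TET3 in 6 of 6 libraries, by a factor of 2.10 to 5.22.

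MBD3, the other MBD subunit of NuRD, lies on the minus strand of the unplaced contig7304 at 4918 to 14679, a span of 9762 bp. Its level was 456.2 TPM in female 1, 203.6 TPM in female 3 and 363.6 TPM in female 4, beside 236.8 TPM in male 1, 350.4 TPM in male 4 and 182.7 TPM in male 5. Females 1 and 4 and male 4 were above 350 TPM and the other 3 libraries below 240 TPM, so that high and low values occurred in both sexes. The mean was 298.9 ± 107.7 TPM (SD, n = 6), with a coefficient of variation of 36.0%. Its 2 overlapping loci on the opposite strand were listed at 0. An unnamed locus on the same strand, 588 bp away, was at 107.7 to 189.4 TPM, and whether it belongs to MBD3 was not tested.

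MBD3 exceeded MBD2 in 6 of 6 libraries, with a TPM ratio of 7.28 to 22.6 (median 12.9). On the log2(TPM + 1) scale the difference was 3.58 ± 0.765 (SD, n = 6; exact two-sided sign-flip permutation test, p = 0.03125, unchanged by adjustment over the 2 pairs). Females 1, 3 and 4 had ratios of 22.6, 7.40 and 17.4, and males 1, 4 and 5 had 8.41, 21.0 and 7.28, so its spread over animals crossed the sexes. The size of the ratio depended on the measure. Within a library, TPM was the same multiple of mean coverage, to within 1%, for 45.7% to 59.0% of the rows with a mean coverage above 1. Coverage times that multiple is called scaled coverage here. TPM over scaled coverage was 0.9999 to 1.002 for TET1 and TET3, 1.03 to 1.06 for MBD2 and 1.20 to 1.21 for UHRF1, but 1.54 to 2.78 for MBD3. By scaled coverage the ratio of MBD3 to MBD2 was 4.42 to 11.2, and MBD3 was still the higher in 6 of 6 libraries.

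**Figure D3:**
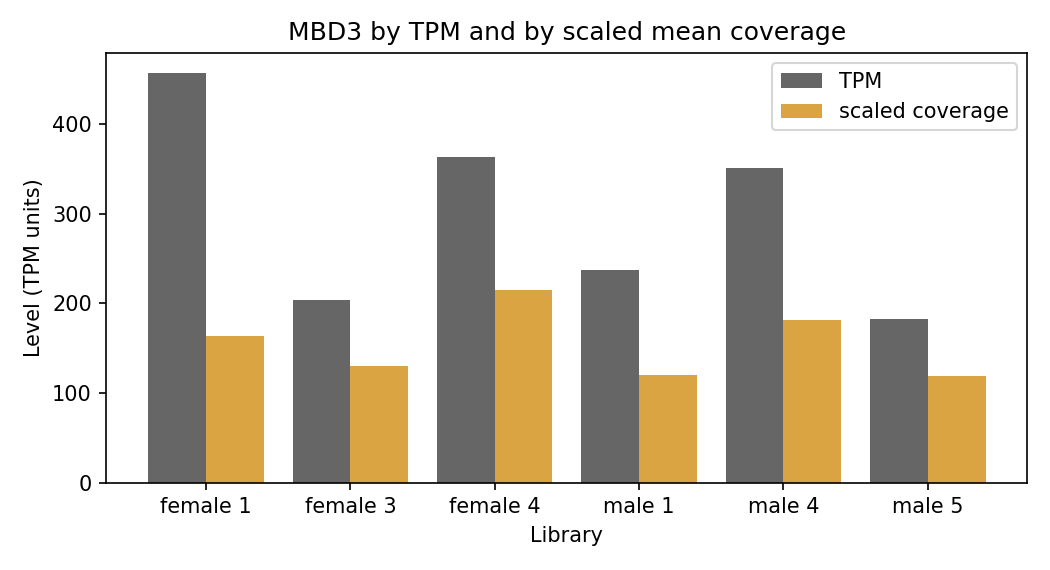
MBD3 in each library as TPM (grey bars) and as mean coverage scaled to TPM units (yellow bars). TPM was 1.54 to 2.78 times the scaled coverage, the largest factor being in female 1, and by scaled coverage female 4 was the highest at 214.3 and not female 1 at 163.9.

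The raw mean coverage was lowest for UHRF1 (1.25 to 4.50) and TET1 (1.83 to 2.66), followed by TET3 (6.14 to 9.88), MBD2 (19.4 to 37.2) and MBD3 (147.2 to 329.6). UHRF1 and TET1 therefore rested on few reads per base in each animal.

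No member passed the test of a difference between the sexes. By limma on log2(TPM + 1) with Benjamini-Hochberg adjustment, 0 of the 5 measured members had an adjusted p under 0.1, against 0.0165% of all 30238 genes tested. At an unadjusted p under 0.05 the count was also 0 of 5, against 5.03% of all genes tested. In 0 of 5 members did the values of the sexes lie apart, against 9.86% of all genes tested. The median female minus male difference was -0.01 over the 5 members, 1 of which was positive, and -0.03 over all genes tested, of which 14188 were positive.

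On the log2(TPM + 1) scale with all 6 animals, TET3 had the largest fitted difference, though MBD3 had a larger one with FPKM (0.42 against -0.30), without female 3 (0.72 against -0.64) and without male 4 (0.63 against -0.43), and UHRF1 had one of 0.31 against -0.30 without female 4. Its level was 5.34 ± 1.51 TPM in females and 7.59 ± 0.621 TPM in males (SD, n = 3 each). The female minus male difference was -0.46 on the log2(TPM + 1) scale (SE 0.34, 95% interval -1.25 to 0.32, limma adjusted p = 0.929). The exact two-sided permutation test over the 6 animals gave p = 0.2. The interval includes both 0 and differences of more than 1 log2 unit toward males.

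MBD3 had a mean of 341.1 ± 127.8 TPM in females and 256.6 ± 85.6 TPM in males (SD, n = 3 each). Its difference was 0.38 (SE 0.34, 95% interval -0.39 to 1.16, limma adjusted p = 0.851; exact permutation p = 0.4). This value moved with single libraries, to 0.14 without female 1 and 0.72 without female 3. Without males 1 and 5, the libraries richest in strandless loci, only male 4 is left on the male side, which has the highest MBD3 of the males, and the difference was -0.12.

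The other members had smaller fitted differences. TET1 was at 1.60 ± 0.466 TPM in females and 1.69 ± 0.291 TPM in males (SD, n = 3 each), a log2 difference of -0.06 (95% interval -1.13 to 1.02, exact permutation p = 0.9). UHRF1 was at 2.26 ± 1.49 TPM and 2.09 ± 0.638 TPM (SD, n = 3 each), with an interval of the log2 difference from -1.24 to 1.24 (exact permutation p = 1). MBD2 was at 22.8 ± 4.05 TPM and 23.3 ± 5.94 TPM (SD, n = 3 each), and its interval from -0.59 to 0.57 was the narrowest of the members (exact permutation p = 1). The signs for TET1, UHRF1 and MBD2 turned under other scalings, units or left-out animals and carry no direction.

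**Figure D4:**
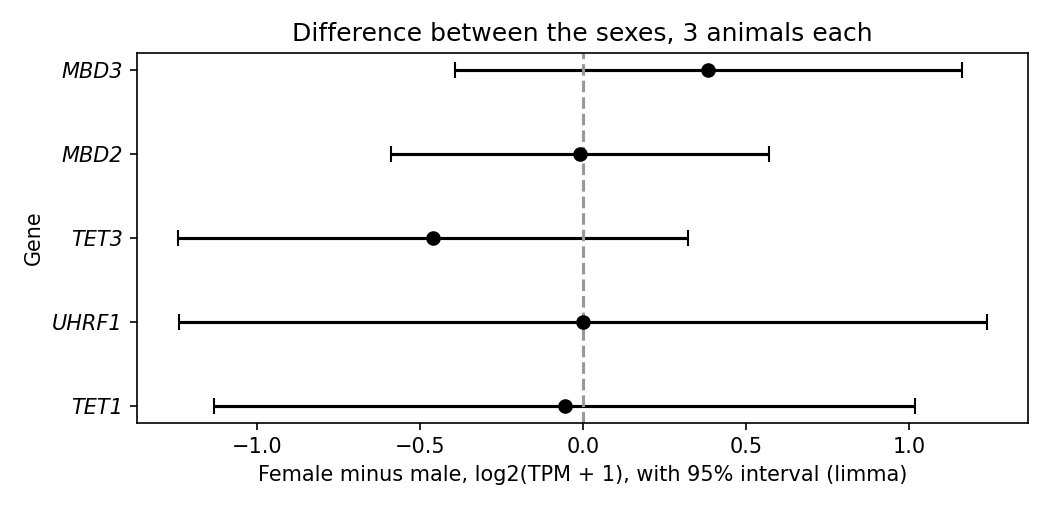
Female minus male difference in log2(TPM + 1) of each measured member (points) with its 95% limma interval (bars), 3 animals per sex. All 5 intervals include 0, and they run from -1.25 at the lowest (TET3) to 1.24 at the highest (UHRF1).

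The surrounding pathway was read from a list of 62 further genes grouped by role. Of these, 42 had a row under their symbol and 34 passed the filter. Between the sexes 0 of 34 passed the adjusted threshold by limma, and 1 of 34 (IDH2) had an unadjusted p under 0.05, against 5.03% of all genes tested. The latter count was 4 of 34 without male 4, where 9.43% of all genes tested were under 0.05, and 1 of 34 without female 4, where the share was 4.42%. It was 0 of 34 without any 1 of the other 4 animals, with shares of 3.46% to 7.55%. In 2 of 34, IDH2 and GADD45A, the sexes did not overlap, against 9.86% of all genes tested. The median difference was 0.11, with 20 of 34 positive, but 14 of 34 were positive without female 3 and 30 of 34 without female 4, so the signs of the list and of most roles rested on single animals.

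Among 9 other methyl-CpG readers, 7 had a row and passed the filter. MBD1, which combines a methyl-CpG binding domain with CXXC zinc fingers, was the highest at 72.2 ± 10.96 TPM (SD, n = 6), between MBD2 and MBD3 in level. The remaining 6 had means from 10.8 TPM (MBD4, a DNA glycosylase) to 59.2 TPM (ZBTB4). UHRF2, the relative of UHRF1, stood at 13.7 to 38.9 TPM. No gene of this group reached an unadjusted p under 0.05 by limma.

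Among the partners of the writers, 10 of 11 had a row and 8 passed the filter. The highest was EHMT2, a histone H3 lysine 9 methyltransferase, at 210.1 ± 42.9 TPM (SD, n = 6). HELLS, the remodeller needed for methylation of repeats, stood at 5.53 to 14.4 TPM, and its partner CDCA7 at 0 to 6.44 TPM. USP7, the deubiquitinase that stabilises DNMT1 and UHRF1, was at 64.9 to 88.8 TPM. DNMT3L, the catalytically inactive cofactor of the de novo enzymes, and TRIM28 were listed at 0 in all 6 libraries. By limma 0 of 8 had an unadjusted p under 0.05.

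Of 6 partners of the erasers, 4 had a row and 3 passed the filter. CXXC5, which contains a CXXC domain of the kind that recruits TET2, was the highest at 293.3 ± 26.2 TPM (SD, n = 6). CXXC4 stood at 17.2 to 21.8 TPM. IDH2, the mitochondrial enzyme that makes the TET cosubstrate 2-oxoglutarate, reached 87.4, 72.35 and 70.0 TPM in females 1, 3 and 4, compared with 52.9, 62.9 and 56.5 TPM in males 1, 4 and 5. Each female was above each male. The log2 difference of IDH2 was 0.41 (SE 0.17, limma unadjusted p = 0.0432, adjusted p = 0.929; exact permutation p = 0.1), so it did not pass the adjusted threshold. The summed blood and oligodendrocyte markers were separated by sex in the same direction, and their part in the difference of IDH2 was not tested.

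Genes of base excision repair and the GADD45 family, which act after oxidation of 5-methylcytosine, numbered 14, of which 8 had a row and 6 passed the filter. GADD45B, an activity-induced gene linked to DNA demethylation in neurons, was the highest at 44.1 ± 14.8 TPM (SD, n = 6). All 6 mean differences were positive, with a median of 0.36, while 14188 of all 30238 genes tested were positive. By limma, 0 of 6 had an unadjusted p under 0.05. With 1 animal left out, 5 or 6 of 6 were positive and the median was 0.27 to 0.60, the highest without male 4. With male 4 as the only male the count was 3 of 6 and the median -0.02. For GADD45A, females 1, 3 and 4 had 17.2, 15.1 and 12.7 TPM and males 1, 4 and 5 had 12.3, 11.4 and 10.8 TPM. The sexes thus lay apart by a small gap (limma adjusted p = 0.929). Blood, oligodendrocyte and precursor marker sums were separated in the same direction, and their part in the differences of this group was not tested. APEX1 reached at most 0.192 TPM and PARP1 was listed at 0. The loci under these names span 597 and 3952 bp, so these values do not show that the genes were silent.

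Of 10 genes listed under supply of the methyl donor S-adenosylmethionine, a label that need not hold for each gene, 7 had a row and passed the filter. AHCYL1, a relative of the hydrolase AHCY, was the highest at 187.2 ± 26.6 TPM (SD, n = 6), and AHCY itself stood at 33.0 to 51.8 TPM. BHMT, known mainly from liver and kidney, was at 0 to 0.863 TPM. By limma 0 of 7 had an unadjusted p under 0.05.

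Of 12 NuRD subunits other than MBD2 and MBD3, 6 had a row and 3 passed the filter. CHD5, the neuronal remodeller of NuRD, was at 141.3 ± 24.95 TPM and HDAC2 at 141.0 ± 23.5 TPM (SD, n = 6 each). MTA3 stood at 32.2 to 65.9 TPM. HDAC1, RBBP4 and RBBP7 were listed at 0, although these are widely used genes. The locus named RBBP4 spans 932 bp, while a copy named RBBP4li3 spans 32868 bp and was at 133.9 to 178.8 TPM, so a symbol at 0 here does not show that the gene was silent. The difference was negative for 3 of 3 tested subunits, with a median of -0.03, but 3 of 3 were positive without female 4.

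**Figure D5:**
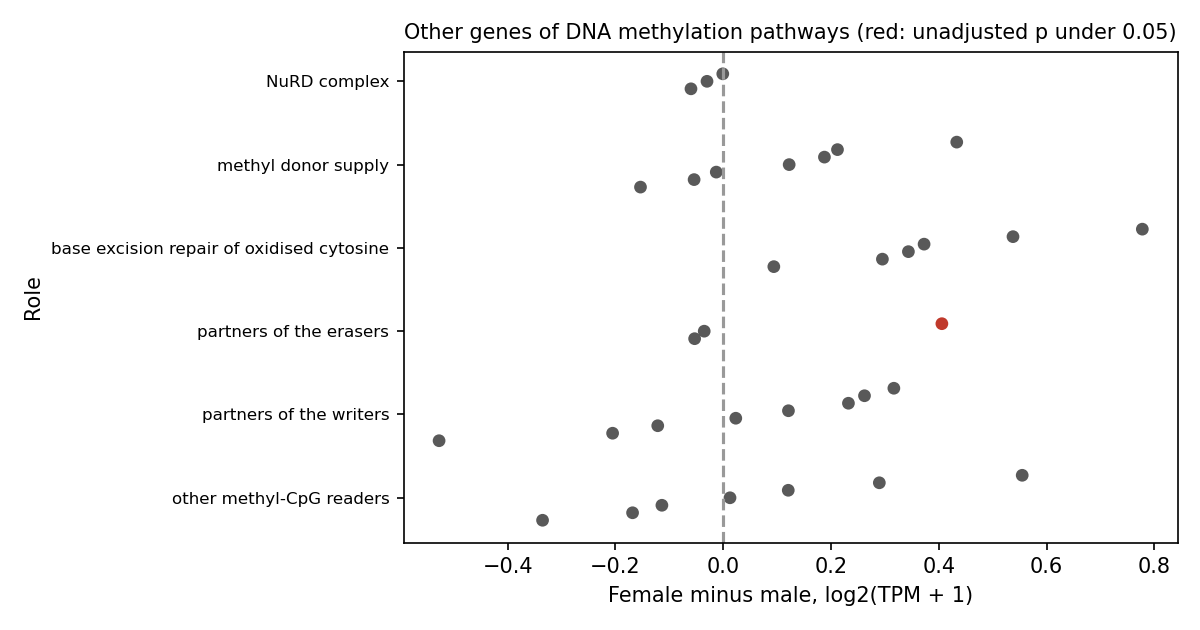
Female minus male difference in log2(TPM + 1) of the 34 tested pathway genes (1 point each), by role. The red point is IDH2 at 0.41, the 1 gene with an unadjusted p under 0.05, and the highest point is GADD45G at 0.78.

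The profile of each member over the 6 animals was set beside those of the other 4 members and the 34 tested pathway genes, 38 candidates in all. Likeness was the root mean square difference of log2(TPM + 1) values centred on their mean, over 6 libraries. The gene most like TET1 was AHCYL1 (0.0771), and that most like TET3 was NSD1 (0.193), a histone H3 lysine 36 methyltransferase. ZBTB33, a zinc finger reader also named Kaiso, was most like MBD2 (0.145). CXXC5 was most like UHRF1 (0.317) and SHMT2, a mitochondrial serine hydroxymethyltransferase, most like MBD3 (0.280). The members' own profiles had a root mean square of 0.174 for TET1, 0.309 for TET3, 0.420 for UHRF1, 0.258 for MBD2 and 0.480 for MBD3, against which these distances are to be read. These are descriptions over 6 points that share library composition.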

How the data were processed

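PFC RNA of 3 female and 3 male tree shrews was enriched for polyadenylated RNA by the authors, who aligned reads to TS_3.0 with HISAT2 2.2.1 and quantified a merged StringTie 2.2.1 assembly in each animal (versions per the submitters' processing notes). The deposited tables hold TPM and FPKM as StringTie computed them, and the deposited coverage is the mean depth over a locus. TPM summed to between 950532 and 971492 per library. The reads behind each TPM value are not known, so precision rests on the spread between animals.

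Rows of a gene ID on the same sequence were summed. A segment of chromosome X and a segment of chromosome 26, which the study set aside as probable Y-linked sequence, were kept out of the tests. The fit used every gene that reached 0.1 TPM in no fewer than 3 animals, in limma 3.58.1 (R 4.3.3) with a mean-variance trend on log2(TPM + 1), a scale that understates changes of low genes. This took the place of the count test of the authors, since no counts were at hand. Adjustment (Benjamini-Hochberg, threshold 0.1) was made within autosomes (27996 genes), within X (744) and, decided after the tables were opened, within unplaced contigs (1498), where UHRF1 and MBD3 lie. Single genes and gene pairs were tested by exact two-sided permutation with numpy 2.4.6 under Python 3.11.15. The p-values of the gene pairs were adjusted in scipy 1.17.1 (tables read with pandas 2.3.3, plots made in matplotlib 3.10.9). The scripts were tested on simulated data.

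Groups followed the sample titles. The 6 libraries are separate animals. Members, gene lists, tests and alternatives were chosen with earlier results of these data known, and scaled coverage was added after the values were seen. Named were all members, the highest gene of each pathway role, every pathway gene with an unadjusted p under 0.05 and the gene most like each member. GADD45A, GADD45G and the genes given for their role or for a level at 0 were named after their values were seen. Alternatives were other pseudocounts, filters, scalings, FPKM, strand-bearing loci only, no trend, a replicate block, joint adjustment and left-out animals. No sequence is shown, since no genome or sequence table of this build was used.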

Additional observations from a re-analysis of the deposited data

How the results depend on the processing

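By limma, 0 of 5 members and 0 of 34 pathway genes passed the adjusted threshold in the reported fit and under every other setting listed above, where the whole table gave 2 to 9 calls. TET3 kept its negative difference in 21 of 21 alternatives (lowest adjusted p 0.676), and IDH2 its positive one in 21 of 21 (lowest adjusted p 0.505). The unadjusted p of IDH2 was 0.0237 to 0.299 over these. Signs turned in the following cases, and the cause was not tested. Under quantile normalization the log2 difference was 0.22 for TET1 and 0.22 for UHRF1. With FPKM it was 0.026 for UHRF1 and 0.018 for MBD2, and with scaled coverage, chosen after seeing the data, 0.0013 for UHRF1. Without both male 1 and male 5 it was 0.42 for MBD2 and -0.12 for MBD3, a fit that sets 3 females against male 4 alone, assumes that male 4 varies like the females, and follows the low MBD2 and high MBD3 of that animal. Over fits that each left out 1 animal, the difference ranged from -0.19 to 0.060 for TET1, -0.34 to 0.31 for UHRF1, -0.22 to 0.14 for MBD2, 0.14 to 0.72 for MBD3 and -0.64 to -0.30 for TET3. Without female 3 the unadjusted limma p of MBD3 was 0.0493 (adjusted p = 0.826). With 1 animal left out, the level difference between TET3 and TET1 was 1.41 to 1.53 and that between MBD3 and MBD2 3.41 to 3.74, with an exact p of 0.0625, the smallest that 5 animals allow. With all 6 animals, TET3 exceeded TET1 by 0.88 with FPKM and by 1.95 at a pseudocount of 0.01, and MBD3 exceeded MBD2 by 2.73 with scaled coverage and by 3.64 at that pseudocount (exact p = 0.03125 each).

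Animals of both sexes shared only numbers 1 and 4, and nothing states that a number links animals. The correlation of same-numbered deviations from the sex means across 30238 genes was -0.0048 and 0.038. With the number as a replicate block the differences were -0.11 for TET1, -0.61 for TET3, -0.15 for UHRF1, -0.078 for MBD2 and 0.50 for MBD3, with 0 calls among members and pathway genes. The low coverage of TET1 and UHRF1 limits what can be said of them.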
